A study of Canis lupus familiaris with 26 samples.

Results

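Corpora lutea (CL) of firocoxib-treated dogs collected on day 30 after ovulation were compared with CL of treated dogs collected on day 20, over all genes counted by RNA-Seq. The libraries were chosen by their labels, as 3 day 20 treated libraries (replicates 2, 3 and 4) and 3 day 30 treated libraries (replicates 2, 4 and 5), which are 6 of the 26 libraries of the series. Treated dogs received 10 mg/kg of firocoxib (Previcox), an oral inhibitor of cyclooxygenase 2 (COX2, the product of PTGS2), every day from ovulation until the ovaries were removed, so the day of collection and the length of dosing cannot be told apart. The 3 day 20 and the 3 day 30 control libraries, from dogs that the protocol describes as given a placebo and the labels call controls, were set beside them. All were mixed-breed bitches of different ages with spontaneous cycles, every dog gave 1 library, and luteal tissue was trimmed from the ovary before RNA extraction, with no cell type sorted. The question posed by the series is how the withdrawal of prostaglandins (PGs) acts on the luteal transcriptome, and this comparison asks how luteal transcripts under continued COX2 inhibition differed between these days.

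The canine CL is the source of progesterone in both pregnant and non-pregnant bitches. It develops at first largely without pituitary support, and from about day 20 onwards it passes into dependence on gonadotropins, with prolactin as the main luteotropic hormone. PGE2, made from arachidonic acid by COX2 and PGE synthase, is regarded as a local luteotropic factor of the early canine CL, while PGF2α and its receptor are better known for their part in luteal regression. Steroid-producing luteal cells lie in a dense bed of capillaries, with fibroblasts and their extracellular matrix between them.

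Between 14851322 and 18468489 reads were counted on genes in each of the 6 treated libraries, and between 14868 and 15749 of the 19856 genes had at least 1 read. The day 20 treated libraries were on average less alike than those of the other 3 groups of days 20 and 30. Their pairwise Pearson correlations of log2 CPM (counts of a gene relative to all counts of its library, after TMM scaling in edgeR) averaged 0.829, with 0.717 between replicates 2 and 3, 0.846 between replicates 2 and 4 and 0.922 between replicates 3 and 4, whereas the averages were 0.955 among day 30 treated, 0.959 among day 20 control and 0.942 among day 30 control libraries. The pair of replicates 3 and 4 lay within the 0.920 to 0.974 of day 30 controls, so the low average came from the pairs with replicate 2. In day 20 treated replicate 2, 610 genes were more than 4-fold above the mean log2 CPM of the other libraries of its group. Another 2512 were more than 4-fold below that mean. The same counts were 1079 and 688 in replicate 3 and 212 and 63 in replicate 4. Among the day 30 treated libraries they lay between 95 and 242 above and between 68 and 341 below. Replicates 2 and 3 of day 20 are therefore the libraries whose joint omission is reported below, beside the omission of each library in turn.

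**Figure D1:**
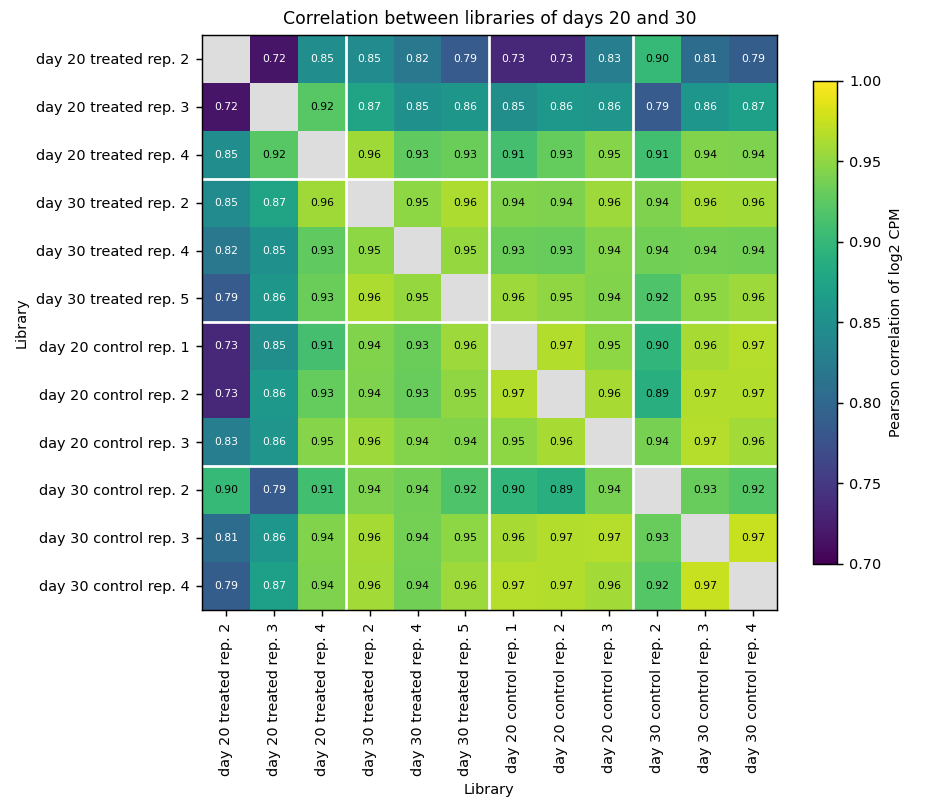
Pearson correlation of log2 CPM between each pair of the 12 libraries of days 20 and 30, with rows and columns in the order of the groups and white lines between them. Replicate 2 of the day 20 treated group has the darkest row, with correlations from 0.717 to about 0.90, while the day 30 treated libraries correlate with each other at 0.949 to 0.963.

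Transcripts of 9 genes encoded in the mitochondrial genome took 1.18%, 3.17% and 4.34% of the reads of day 20 treated replicates 2, 3 and 4, and 5.95%, 6.82% and 6.29% of those of day 30 treated replicates 2, 4 and 5. Day 20 controls had 8.46%, 10.3% and 9.55%, and day 30 controls 3.86%, 7.19% and 6.13%. The treated groups thus did not overlap in this share, which was counted after the data were examined, and its part in the results that follow was not tested. The 9 genes are those with a name, which came from the study's lists of genes affected by time or treatment in these same dogs. Mitochondrial genes without a name were not counted, so the share is partial and depends in part on that choice.

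No gene passed the thresholds for differentially expressed genes (DEGs; P under 0.01 and a false discovery rate, FDR, under 0.1) between day 30 and day 20 of treated dogs in edgeR's quasi-likelihood test, among 13692 genes tested (0%). At an unadjusted P under 0.05, 582 genes (4.25%) were higher and 891 (6.51%) were lower on day 30, a balance that turned to 586 and 234 with the replicate number as a block. DESeq2 called 562 DEGs with the same thresholds, 212 higher (1.55% of the 13667 genes with an adjusted P) and 350 lower (2.56%), of which 198 and 321 had groups that did not overlap. This count rested on single libraries. It was 1576 without day 20 replicate 2 and 217 without day 20 replicate 3, and it was 361, 111 and 48 without day 30 replicates 2, 4 and 5. A gene described below as passing with DESeq2 passed with all 6 libraries in the fit. Of the 562, 510, 174 and 322 also passed without day 20 replicates 2, 3 and 4, and 274, 88 and 42 without day 30 replicates 2, 4 and 5.

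All 3 day 30 values lay above all 3 day 20 values for 1352 genes (9.87%) and below them for 1719 genes (12.6%). With 3 against 3 libraries, a permutation test of a single value cannot give a P below 0.1. The distance between the mean profiles of the days, over the 2000 genes with the highest variance, was 72.4 log2 units (exact two-sided permutation P = 0.1, the smallest this design allows). Pairs of libraries from different days were 105 units apart on average, which was less than the 117 units between pairs of day 20 libraries and more than the 67.7 units between pairs of day 30 libraries. Without replicate 2 of day 20 the averages were 107 units between the days and 88.4 units within day 20.

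Of the 4 groups of days 20 and 30, the day 20 treated libraries were the ones that most often lay outside the range of the rest. For 805 genes (5.82% of 13825) all 3 of them were above all 9 other libraries and for 637 (4.61%) below them. For the day 30 treated libraries these counts were 39 (0.282%) and 66 (0.477%), for day 20 controls 134 (0.969%) and 94 (0.68%), and for day 30 controls 77 (0.557%) and 15 (0.108%).

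The leading genes with a symbol and groups that did not overlap were, in each direction, the 10 with the smallest P. Of these 20, 15 stand on the study's list of the day 20 treatment effect, so their arrangement of day 20 treated libraries against controls is partly fixed by that choice. All 20 missed the edgeR thresholds (FDR = 0.373) and passed with DESeq2. SMOC2 (ENSCAFG00000000868), a secreted calcium-binding protein of the matrix, had 1390, 1532 and 721 CPM on day 20 and 147, 161 and 142 CPM on day 30 of treatment. Its log2 fold change of day 30 over day 20 was -2.99 (standard error, SE, 0.45). The day 30 values lay within the 110 to 239 CPM of the 6 control libraries, and all 3 day 20 values lay above them. NODAL (ENSCAFG00000014052), a ligand of the TGF-β family, had 9.01, 15.4 and 16.5 CPM on day 20 and 1.05, 0.141 and 0.985 CPM on day 30 (log2 fold change -4.17, SE 0.71), with 0 to 1.81 CPM in controls. NDRG2 had 374, 462 and 215 CPM against 80.7, 63.2 and 55.8 CPM (log2 fold change -2.37, SE 0.44). The remaining 7 genes that led on the lower side were THSD4, KCNQ3, SLC34A2, DTX4, PDGFRL, SORCS2 and TBC1D16, with log2 fold changes between -3.65 and -2.12. For 9 of these 10 genes, all 3 day 20 treated libraries exceeded all 9 others.

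Among the genes higher on day 30, CAST (ENSCAFG00000007854), which encodes the calpain inhibitor calpastatin, had 222, 142 and 292 CPM on day 20 and 1232, 847 and 1589 CPM on day 30 (log2 fold change 2.53, SE 0.46). The control libraries spanned 417 to 2235 CPM, so the day 20 treated libraries lay below all of them. NPR3 (ENSCAFG00000018877), the clearance receptor of natriuretic peptides, had 6.08, 4.90 and 8.77 CPM on day 20 and 19.6, 51.2 and 54.7 CPM on day 30 (log2 fold change 2.71, SE 0.51). FMO2, a flavin-containing monooxygenase, had 6.29, 0.666 and 6.53 CPM on day 20 and 67.8, 220 and 132 CPM on day 30 (log2 fold change 5.02, SE 0.91), but 1.94 to 67.7 CPM among controls, whose range held the day 20 values of replicates 2 and 4. FER1L6, ENO4, LRP2BP, VWA5A, GCNT7, TARSL2 and KIAA0319 completed the leading 10, with log2 fold changes from 2.29 to 5.07. In 7 of the 10 the day 20 treated libraries were below all 9 others, and in 2 the day 30 treated libraries were above all 9.

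**Figure D2:**
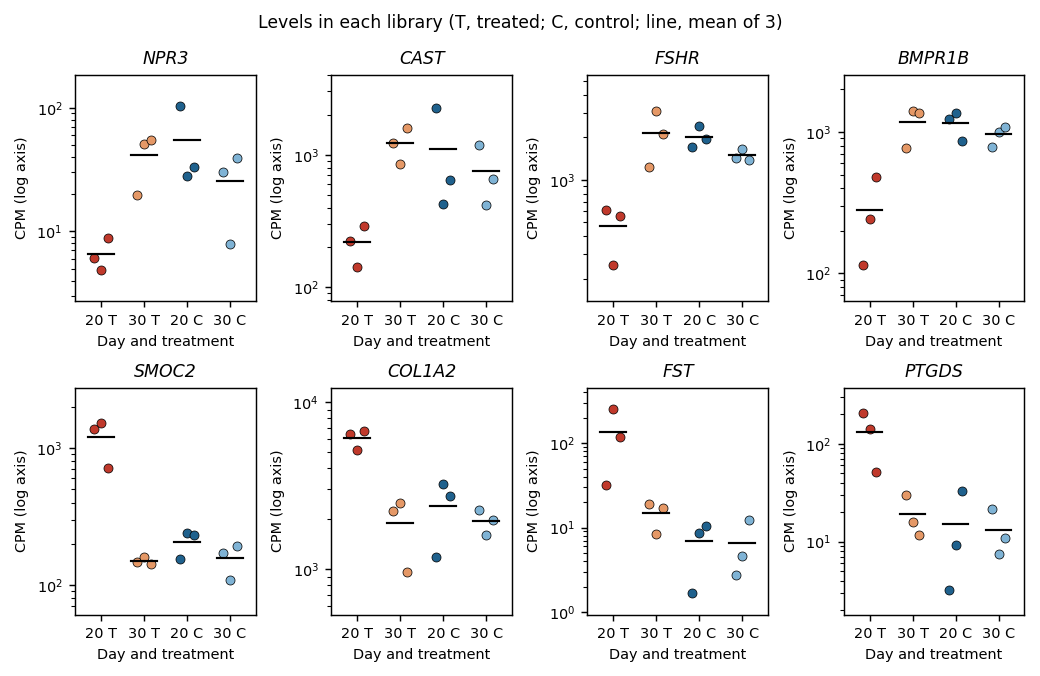
CPM on a log axis in each library for 4 genes that were higher (upper row) and 4 that were lower (lower row) on day 30 than on day 20 of treatment, by day (20, 30) and treatment (T, treated; C, control), with 1 point per library and the mean of 3 as a line. In each panel the day 20 treated points are separated from the day 30 treated points, as for SMOC2 with 721 to 1532 against 142 to 161 CPM, whereas those of day 20 and day 30 controls overlap, except for FSHR.

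The same days of control dogs were fitted alone with the same settings. edgeR called none of 13133 genes (0%), with 111 (0.845%) higher and 945 (7.2%) lower on day 30 at an unadjusted P under 0.05, and DESeq2 called 21 higher (0.16%) and 136 lower (1.04%). The days did not overlap for 676 genes above (5.15%) and 935 below (7.12%). The median biological coefficient of variation was 48.6% in treated and 34.0% in control dogs.

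Gene names were available only for identifiers on the study's lists of genes affected by time or treatment in these same dogs, so shares among named genes were higher than among all genes. The day 30 values did not overlap with those of day 20 for 15.5% (above) and 19.2% (below) of 4288 named genes, and for 15.8% and 17.7% of the 3037 of them on the list made from control dogs. For the 1547 genes on the list of the day 20 treatment effect, which the day 20 treated libraries helped to choose, the shares were 18.1% and 34.1%. An unadjusted P under 0.05 was reached by 8.23% (higher) and 13.3% (lower) of the named genes, by 8.46% and 11.4% of those on the control list, and by 11.5% and 25.8% of those on the day 20 treatment list. The median log2 fold change was -0.09 over the named genes and -0.03 over those on the control list. It was -0.585 over those on the day 20 treatment list. Counts and medians in the gene lists below are to be read against these values, and are not independent evidence of a direction. In bulk tissue, fewer cells of a type and less RNA per cell cannot be told apart.

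Of 22 matrix and fibroblast genes tested, 20 had a lower mean level on day 30, and their median log2 fold change was -1.35, whereas that of the 13692 genes tested was -0.05. In 14 members all 3 day 30 libraries were below all 3 day 20 libraries and in none above, 13 had an unadjusted P under 0.05, 9 passed with DESeq2 and none with edgeR. The exceptions were LUM and FBLN2, both singled out after their values were seen, with log2 fold changes of 0.61 (SE 0.68) and 0.05 (SE 0.85). Among the 20 members listed from control dogs, 12 did not overlap and the median was -1.51. Without replicates 2 and 3 of day 20, the median of all 22 was -1.34. The same 22 genes had a median of -0.22 in control dogs, where none of them separated the days.

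COL1A2 (ENSCAFG00000002069), a chain of type I collagen, had 6417, 5158 and 6744 CPM on day 20 and 2236, 2486 and 965 CPM on day 30 (log2 fold change -1.65, SE 0.47, FDR = 0.0297 with DESeq2). Controls had 1188, 3241 and 2735 CPM on day 20 and 2250, 1612 and 1968 CPM on day 30, so the day 20 treated libraries were above every control. COL3A1, the chain of type III collagen, had 2474, 1807 and 3882 CPM against 929, 1328 and 449 CPM (log2 fold change -1.55, SE 0.53) and also passed with DESeq2. Both collagens were singled out after their values were seen. FBLN1, a fibulin of elastic fibers and basement membranes, had 206, 116 and 106 CPM against 34.8, 33.2 and 16.6 CPM (log2 fold change -2.30, SE 0.47). The gelatinase MMP2 had 478, 308 and 348 CPM against 103, 122 and 58.9 CPM (log2 fold change -1.96, SE 0.43). Its membrane-bound activator MMP14 had 271, 195 and 136 CPM against 76.2, 67.1 and 41.4 CPM (log2 fold change -1.67, SE 0.44). Elastin (ELN) varied widely on day 20, with 78.7, 7.99 and 20.4 CPM against 5.00, 3.18 and 3.19 CPM. FBLN1, MMP2, MMP14 and ELN passed with DESeq2.

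The TGF-β and activin family contributed several of the lower genes. Of 19 members, 15 had lower means on day 30. Their median log2 fold change was -0.85 in treated dogs and 0.18 in controls, and 8 did not overlap below and 2 above. Unadjusted P values under 0.05 were found for 7 lower members and 1 higher member, and 5 and 1 of them passed with DESeq2. Beside NODAL, the ligand TGFB3 had 17.6, 17.6 and 10.8 CPM on day 20 and 5.00, 2.54 and 3.65 CPM on day 30 (log2 fold change -2.001, SE 0.44). INHBB, the β subunit of activin B and inhibin B, had 7.30, 14.6 and 7.95 CPM against 2.50, 1.98 and 2.49 CPM (log2 fold change -2.07, SE 0.47). Follistatin (FST), which binds and neutralizes activins, had 32.2, 251 and 119 CPM against 19.1, 8.40 and 16.9 CPM (log2 fold change -3.16, SE 0.76). Levels of ligand and inhibitor were thus lower together on day 30, and the day 20 libraries differed up to several fold among themselves for FST. The higher member was the BMP receptor BMPR1B (ENSCAFG00000010107), with 115, 241 and 481 CPM on day 20 and 766, 1416 and 1367 CPM on day 30 (log2 fold change 2.12, SE 0.59). Controls had 787 to 1360 CPM of BMPR1B.

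Of 11 hormone receptors, 6 had higher and 5 lower means on day 30, the median log2 fold change was 0.10 (-0.06 without day 20 replicate 2), and 1, FSHR, passed with DESeq2. FSHR (ENSCAFG00000002698), the receptor of follicle-stimulating hormone, had 616, 249 and 555 CPM on day 20 and 1235, 3102 and 2126 CPM on day 30 (log2 fold change 2.24, SE 0.54, FDR = 0.00662 with DESeq2). The prolactin receptor PRLR (ENSCAFG00000018782) had 96.3, 123 and 173 CPM on day 20 and 193, 246 and 282 CPM on day 30 (log2 fold change 0.92, SE 0.40), which passed with neither tool. Its groups did not overlap, but the highest day 20 and the lowest day 30 value lay close together. PGRMC1, a membrane-associated progesterone-binding protein, had 327, 208 and 484 CPM against 715, 680 and 915 CPM (log2 fold change 1.23, SE 0.43) and passed with neither tool. LHCGR, the receptor of luteinizing hormone, had 14.9, 119 and 59.5 CPM against 55.8, 26.4 and 65.6 CPM, so that day 30 lay within the range of day 20. The insulin receptor INSR was the 1 member separated below, with 22.5, 35.4 and 33.9 CPM against 21.8, 16.7 and 11.3 CPM, and it missed the thresholds with both tools. In all, 4 of the 11 receptors were separated above.

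Steroid synthesis and its regulators held 12 members, whose median log2 fold change was 0.70 (0.03 in controls). Of these, 5 were separated above and 2 below, and only HSD17B1 passed with DESeq2. CYP19A1 (ENSCAFG00000015338), the aromatase that makes estrogens, had 334, 113 and 1066 CPM on day 20 and 989, 1514 and 2448 CPM on day 30. These groups overlapped, since replicate 4 of day 20 exceeded replicate 2 of day 30 (log2 fold change 1.76, SE 0.78). NR5A2, a nuclear receptor that drives steroidogenic genes, had 53.5, 46.7 and 192 CPM against 320, 270 and 264 CPM (log2 fold change 1.59, SE 0.59), with 302 to 524 CPM in controls. HSD17B1, an estrogen-activating dehydrogenase, was low and on the other side, with 3.41, 3.14 and 2.19 CPM against 0.582, 0.282 and 0.290 CPM (log2 fold change -2.86, SE 0.60). The transcription factor GATA4 had 108, 115 and 78.4 CPM against 62.9, 47.2 and 38.7 CPM and missed the thresholds with both tools. Granulosa and theca markers share FSHR, BMPR1B, INHBB, FST, CYP19A1 and NR5A2, among others, with the lists above. Of 8 members, 3 were separated above and 2 below, all of them already counted in those lists. STAR, CYP11A1 and HSD3B2 were not analysed here.

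In the cholesterol list, no member of 16 separated the days and the median log2 fold change was -0.13, which turned to 0.28, 0.29 and 0.18 without day 20 replicate 2, day 20 replicate 4 and day 30 replicate 4. The libraries of day 20 differed among themselves, since the mean level of the list was 7.21, 4.29 and 7.56 log2 CPM in replicates 2, 3 and 4 of day 20 and 7.60, 6.13 and 6.82 in replicates 2, 4 and 5 of day 30. FDPS, which makes farnesyl diphosphate, had 402, 26.6 and 274 CPM against 248, 92.9 and 135 CPM. The sterol demethylase CYP51A1 had 122, 34.9 and 269 CPM against 269, 147 and 168 CPM. Replicate 3 of day 20 was the lowest of the 6 treated libraries for both genes.

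The target of the drug, PTGS2 (ENSCAFG00000013762), had 3.04, 30.2 and 71.1 CPM on day 20 and 12.3, 10.6 and 2.90 CPM on day 30 of treatment, and the groups overlapped (log2 fold change -1.98, SE 0.99). Firocoxib acts on the enzyme, so a transcript level is no measure of inhibition. Across 14 genes of PG synthesis and signalling the median log2 fold change was -1.33 (-0.32 in controls), and it was -0.54 over those of them listed from control dogs. Terminal synthases made up the members that passed with DESeq2. PTGDS, a PGD2 synthase, had 207, 140 and 51.8 CPM on day 20 and 30.2, 15.8 and 11.7 CPM on day 30 (log2 fold change -2.75, SE 0.62). The prostacyclin synthase PTGIS had 88.8, 132 and 87.2 CPM against 37.2, 37.4 and 23.2 CPM (log2 fold change -1.63, SE 0.40). The thromboxane synthase TBXAS1 had 11.7, 41.5 and 8.67 CPM against 4.42, 2.75 and 4.17 CPM (log2 fold change -2.43, SE 0.67). PPARG, a nuclear receptor activated by PGD2 metabolites among others, had 9.22, 65.1 and 27.9 CPM against 11.6, 7.27 and 9.97 CPM, with overlapping groups. The PGF2α receptor PTGFR, singled out after its values were seen, was the 1 member separated above, with 216, 53.8 and 902 CPM against 1356, 1772 and 1946 CPM (log2 fold change 2.17, SE 0.88), and it passed with neither tool. Controls had 1264 to 2987 CPM of PTGFR, above every day 20 treated library.

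Immediate-early genes, which are switched on within minutes of a stimulus such as a growth factor and many of which encode transcription factors, had lower means on day 30 for all 20 members tested, and their median log2 fold change was -1.57. A block for the replicate number brought it to -0.71. The median in control dogs was 0.65 over 19 members. Their list means were 2.05, 3.73 and 3.69 log2 CPM in replicates 1, 2 and 3 of day 20 and 5.32, 3.36 and 2.93 log2 CPM in replicates 2, 3 and 4 of day 30, so that among day 30 controls replicate 2 alone lay above day 20. In treated dogs 11 members had an unadjusted P under 0.05, 7 did not overlap, and 2 (JUND and FOSB) passed with DESeq2. Of the 20, 4 were listed from control dogs, and their median was -1.53. All the others stand on the study's list of the day 20 treatment effect, so their direction is partly fixed by that choice. JUND had 15.7, 19.2 and 11.2 CPM on day 20 and 4.94, 4.52 and 1.62 CPM on day 30 (log2 fold change -2.02, SE 0.52). FOSB had 138, 958 and 706 CPM against 114, 151 and 27.0 CPM (log2 fold change -2.60, SE 0.85), with the lowest day 20 library below the highest day 30 library. JUNB had 52.1, 59.6 and 50.8 CPM against 22.2, 25.3 and 5.85 CPM, and passed with neither tool, nor did BTG2. FOS and EGR1, singled out after their values were seen, ran to 1884 and 3072 CPM in replicate 3 of day 20. Both had overlapping groups, with 498 and 991 CPM in replicate 2 of day 20 and up to 564 and 1027 CPM on day 30. Neither gene passed with either tool. Replicate 2 of day 20 was close to day 30 in this list, at a mean of 5.43 log2 CPM against 6.91 and 6.61 in replicates 3 and 4, and 5.02, 5.67 and 3.36 on day 30.

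Of 29 NF-κB and acute inflammatory genes, 22 had lower means on day 30 and the median log2 fold change was -0.69 (0.17 in controls). Unadjusted P values under 0.05 were found for 6 lower and 2 higher members. IL1RN, the antagonist of the interleukin 1 receptor, had 16.2, 66.7 and 50.4 CPM on day 20 and 8.08, 14.0 and 3.36 CPM on day 30 (log2 fold change -2.37, SE 0.69) and passed with DESeq2. The long pentraxin PTX3 had 36.8, 44.5 and 66.1 CPM against 24.0, 28.2 and 14.7 CPM and passed with neither tool. SOD2, the mitochondrial superoxide dismutase, was higher on day 30, with 196, 106 and 348 CPM against 516, 652 and 820 CPM (log2 fold change 1.66, SE 0.51). So was the pattern receptor TLR2, with 80.7, 15.8 and 80.8 CPM against 151, 211 and 322 CPM (log2 fold change 1.999, SE 0.65). Both passed with DESeq2. The 9 macrophage markers all had lower means on day 30 (median log2 fold change -0.62, -0.17 in controls), but none reached an unadjusted P under 0.05 and LAPTM5 alone was separated. Without replicates 2 and 3 of day 20 the median was 0.08. The markers summed to 329, 304 and 215 CPM on day 20 and 206, 154 and 236 CPM on day 30. CTSS was the most abundant of them in each treated library except day 20 replicate 2. There C1QA had 106 CPM, LAPTM5 87.1 CPM and CTSS 73.9 CPM. No marker was at 0 in any treated library.

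Means of cell cycle genes were lower on day 30 in 24 of 26 members, and the median log2 fold change was -0.96 (0.23 in controls). In 13 members the day 30 libraries were all below those of day 20, 6 had an unadjusted P under 0.05, and AURKB, MCM5 and MCM2 passed with DESeq2. The replication helicase subunit MCM2 had 28.8, 16.4 and 18.7 CPM on day 20 and 10.5, 3.25 and 5.51 CPM on day 30 (log2 fold change -1.69, SE 0.51). MCM5, of the same complex, had 21.3, 11.8 and 11.6 CPM against 6.69, 1.98 and 4.12 CPM (log2 fold change -1.76, SE 0.54). The mitotic kinase AURKB had 8.53, 12.4 and 7.44 CPM against 4.19, 1.55 and 1.91 CPM (log2 fold change -1.86, SE 0.52). CDK2 did not overlap either, but missed the thresholds with both tools. Day 30 treated replicate 2 had a list mean of 3.26 log2 CPM, close to the 3.22, 3.44 and 3.68 of day 20, whereas replicates 4 and 5 had 1.98 and 2.34.

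Cytosolic ribosomal protein genes, which encode the protein part of the ribosome, differed little for each gene but in 1 direction for nearly all. Of 57 identifiers, 55 had lower means on day 30, the median log2 fold change was -0.63, and in 40 all 3 day 30 libraries were below all 3 day 20 libraries. Without replicates 2 and 3 of day 20 the median was -0.32. In control dogs the median was 0.12 and no member separated the days. Only 3 members had an unadjusted P under 0.05 in treated dogs and none passed with either tool. RPS14 had 2611, 2044 and 1656 CPM on day 20 and 1002, 1096 and 1202 CPM on day 30 (log2 fold change -0.90, SE 0.38), and 395 to 982 CPM in controls. RPS16, RPSA and RPS3 had log2 fold changes between -1.07 and -0.88. The list summed to 75980, 64930 and 56880 CPM on day 20 and to 37640, 44270 and 46770 CPM on day 30 of treatment, with 18180 to 33570 CPM in the 6 controls. Ribosomal protein genes have many processed copies in the genome, so the split of reads between a gene and its copies is uncertain.

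**Figure D3:**
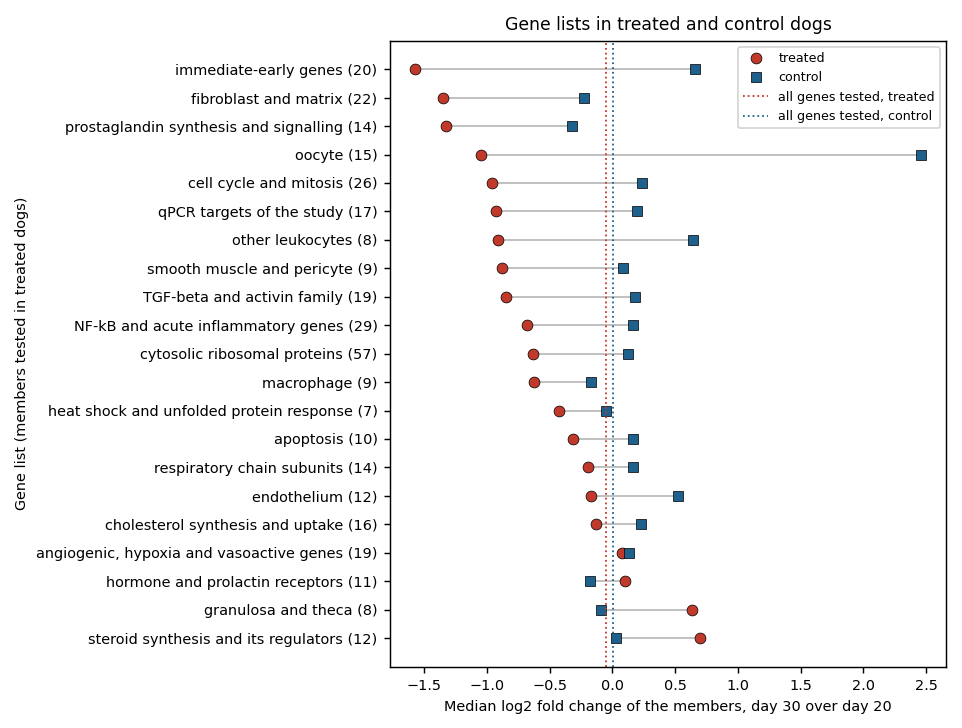
Median log2 fold change of day 30 over day 20 of each gene list with at least 7 members tested, in treated (circles) and control dogs (squares), with the medians of all genes tested as dotted lines. Immediate-early genes (-1.57 against 0.65) and matrix genes (-1.35 against -0.22) lie farthest to the left in treated dogs. Most immediate-early and all oocyte genes stand on the study's list of the day 20 treatment effect, so their positions are partly fixed by that choice. The oocyte square rests on 7 members tested in controls. Of these, the 3 with an unadjusted P under 0.05 passed the filter on low counts only through day 30, so its position is partly fixed by the filter.

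Oocyte genes, markers of a cell type other than luteal cells, differed between libraries within a group. The 15 members summed to 195, 373 and 304 CPM in day 20 treated replicates 2, 3 and 4, and to 213, 7.34 and 116 CPM in day 30 treated replicates 2, 4 and 5. Controls ranged from 6.61 to 31.3 CPM. BMP15, a growth factor secreted by the oocyte, had 40.3, 84.2 and 70.4 CPM on day 20 and 34.8, 1.84 and 16.8 CPM on day 30. The zona pellucida gene ZP2 had 42.2, 74.9 and 54.2 CPM against 26.3, 0.494 and 15.7 CPM. GDF9 had 28.5, 46.6 and 34.6 CPM against 29.4, 3.53 and 19.2 CPM. No member of the 15 had 0 reads in any day 20 treated library, whereas 4 did in day 30 treated replicate 4. All members stand on the study's list of the day 20 treatment effect. Their levels in day 20 treated libraries, and so their direction towards day 30, are partly fixed by that choice. Means were lower on day 30 for 14 of the 15 members, and the median log2 fold change was -1.05. ZP2, ZP3 and BMP15 were separated below, ZP3 only by 32.7 against 32.8 CPM. No member reached an unadjusted P under 0.05. In controls the median was 2.46 over the 7 members tested, of which 3 were higher at an unadjusted P under 0.05. Those 3 had between 0 and 0.481 CPM in day 20 controls and passed the filter on low counts only through day 30. Their direction was thus largely fixed by the filter, and nothing is concluded from the control median. The part of ovarian tissue with oocytes in the other results was not tested.

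Among vessel markers, no endothelial gene of 12 separated the days of treatment (median log2 fold change -0.17, but 0.15 without replicate 2 of day 20). VWF had 637, 89.1 and 310 CPM on day 20 and 299, 131 and 116 CPM on day 30, and CD34 had 421, 60.8 and 226 CPM against 226, 84.8 and 139 CPM, with replicate 3 the lowest library for both. ENG had overlapping groups as well. In control dogs the median was 0.52, 4 of the 12 were higher on day 30 at an unadjusted P under 0.05 (0.845% of all genes), and the same number lay above without overlap. Of 9 smooth muscle and pericyte genes 8 had lower means on day 30 of treatment. ACTG2, a smooth muscle actin, had 183, 34.2 and 69.3 CPM against 30.8, 35.6 and 16.1 CPM, and TAGLN overlapped too. The contractile gene CNN1 was the 1 member separated below, with 23.5, 7.89 and 9.23 CPM against 4.13, 6.64 and 1.62 CPM (log2 fold change -1.66, SE 0.64), and passed with neither tool. The pericyte gene RGS5 was the exception, with 37.7, 34.1 and 116 CPM against 183, 158 and 191 CPM (log2 fold change 1.55, SE 0.54), and it passed with neither tool.

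Of 19 angiogenic, hypoxia and vasoactive genes, 11 had higher and 8 lower means on day 30, and THBS1, THBS2 and PDGFC passed with DESeq2. THBS1, an inhibitor of angiogenesis that also activates latent TGF-β, had 199, 1095 and 650 CPM on day 20 and 187, 209 and 57.7 CPM on day 30 (log2 fold change -2.08, SE 0.73), with groups that overlapped. The remaining lists held few separated members. Heat shock and unfolded protein genes had 1 of 7 below, apoptosis genes 1 of 10 above and 1 below, respiratory chain subunits 1 of 14 above and 1 below, and leukocyte markers other than macrophage genes 2 of 8 below. Adipocyte genes had 1 of 3 below, and the markers of epithelium and erythroid cells, with 2 and 1 members, had none. Of 17 qPCR targets with an identifier, 15 had lower means on day 30, 6 did not overlap and 4 passed with DESeq2. These targets had been chosen with results from the same dogs, so their direction is not independent evidence.

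**Figure D4:**
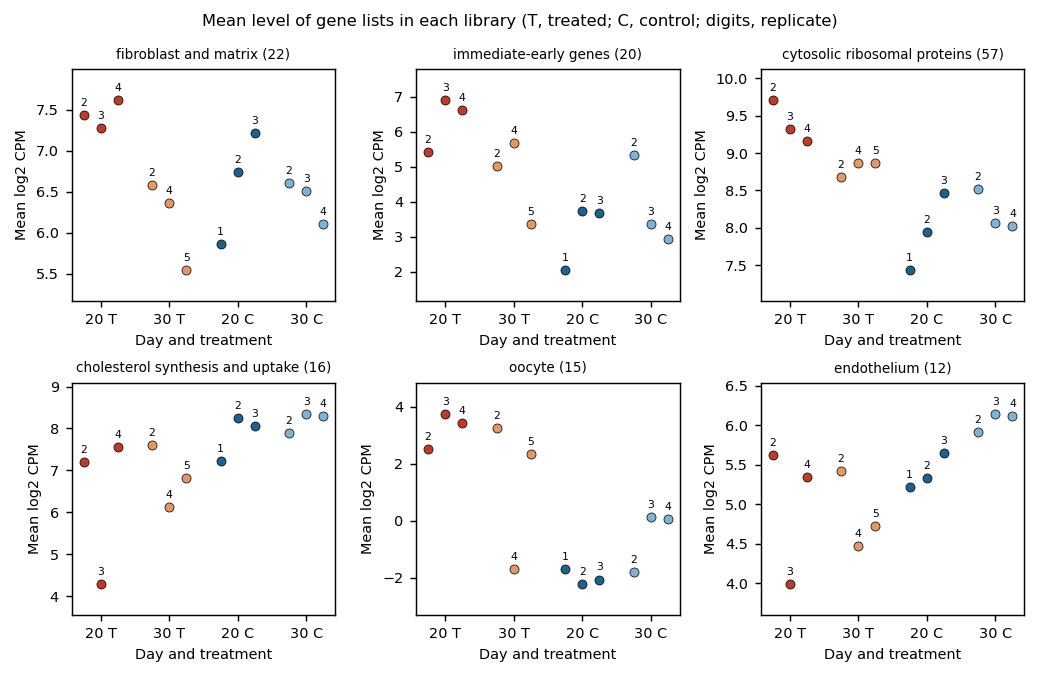
Mean log2 CPM over the members of 6 gene lists in each library, by day and treatment (20 T, 30 T, treated; 20 C, 30 C, control), with the replicate number at each point and the number of members in the title. Matrix and ribosomal protein genes separate the treated days, replicate 3 of day 20 has the lowest cholesterol (4.29) and endothelial (3.99) levels, and day 30 treated replicate 4 has the lowest oocyte level among treated libraries (-1.71).

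Whether the difference between the days itself differed with treatment was tested as an interaction over the 12 libraries. edgeR called none of 13825 genes (0%), with 983 (7.11%) higher and 900 (6.51%) lower at an unadjusted P under 0.05, and DESeq2 called 241 (1.75%) and 319 (2.31%). The direction of the split at this P depended on the scaling, since RLE factors gave 817 higher and 1079 lower genes. The 3 named genes with the smallest P were PTPN20, STEAP2 and DYNLT3 for a more positive difference in treated dogs and PGM5, SMOC2 and DCHS1 for a more negative one, all with an edgeR FDR of 0.278. All but PTPN20 stand on the study's list of the day 20 treatment effect, so their differences are partly fixed by that choice. PGM5, a phosphoglucomutase-like protein of cell adhesions, had 138, 110 and 101 CPM on day 20 and 41.8, 25.2 and 33.7 CPM on day 30 of treatment. In controls it had 21.5, 30.2 and 30.6 CPM on day 20 and 30.2, 36.4 and 49.3 CPM on day 30. For SMOC2 the difference of the log2 fold changes was -2.59. No list was tested for a difference between treated and control dogs.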

How the data were processed

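Poly-A selected RNA of trimmed CL tissue had been sequenced, as single-end reads. The authors used STAR as aligner, with the CanFam3.1 genome build of Ensembl, and deposited the raw read counts that featureCounts gave for each gene, neither normalized nor filtered. Strand settings are not given in the sources used here. Libraries that the authors had removed as outliers, a day 30 treated library among them, were not analysed here. Every count of a library was used, and totals are given with the results. Precision is limited by 3 dogs per group, and genes near the filter rest on few reads.

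A gene entered a test when its mean reached 10 reads in 1 or more of the groups compared. Tests were run in R 4.3.3 with edgeR 4.0.16 (glmQLFit and glmQLFTest, TMM factors, Benjamini-Hochberg adjustment), separately for treated dogs, control dogs and the interaction. DESeq2 1.42.0 and limma 3.58.1 were alternatives. Fold changes came from these fits, and CPM values from TMM factors over all 26 libraries, with a prior count of 2 for log2 CPM. The tests were tried on simulated data first. No 2 libraries of a group held the same counts.

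The comparison, gene lists and tests were chosen with earlier results of these data known. Names came from the pairs of identifier and symbol on the study's lists of DEGs, which cover 4355 identifiers. Fold changes, P values and other results on those lists were not used. The text names, in each direction, the 10 genes with the smallest P among those with a symbol and groups that did not overlap, up to 4 members of each list by P, LHCGR, PRLR and PTGS2 as checks, and the 3 genes with the smallest interaction P in each direction. COL1A2, COL3A1, FOS, EGR1, PTGFR, LUM, FBLN2, CTSS, ZP3, NFKB1 and TYMS fall outside this rule and were singled out after their values were seen. Alternatives were other tools, scalings and filters, a fit of all libraries, an FDR under 0.05 alone, the omission of the 10 most counted genes, the replicate number as a block, and each library left out. The omission of day 20 treated replicates 2 and 3 together, DESeq2 without each library, and list members of the control list alone were added after the data were examined.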

Additional observations from a re-analysis of the deposited data

Results flagged for a closer look

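In treated dogs, all 3 libraries of day 30 lay on 1 side of those of day 20, and in control dogs on the opposite side, for 310 of the 13000 genes tested in both (2.38%), while the days separated in the same direction for 52 (0.4%). Of 4036 genes with a symbol, 143 (3.54%) were arranged in this way, and of 313 members of the gene lists 8 (2.56%) were. The genes described here were chosen by their P values or list membership, so their number is a description. Several, such as FSHR and PRLR, stand on the list of the day 20 treatment effect, so their differences are partly fixed by that choice. The difference of the log2 fold changes between treated and control dogs was tested as the interaction, and none passed with edgeR. Over the 143 genes with a symbol, the FDR ranged from 0.278 to 0.468 with edgeR and from 0.00114 to 0.304 with DESeq2. The list members NFKB1 and TYMS, singled out after their values were seen, had an edgeR FDR of 0.342 and 0.406 and the smallest differences of the 8, at -0.90 (SE 0.38) and -0.69 (SE 0.36).

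FSHR had a log2 fold change of 2.24 (SE 0.54) in treated dogs and of -0.50 (SE 0.24) in control dogs, where it went from 1712, 2403 and 1947 CPM on day 20 to 1424, 1653 and 1395 CPM on day 30. The difference was 2.67 (SE 0.58). For PRLR the values were 0.92 in treated and -0.65 in control dogs, with 393, 358 and 279 CPM on day 20 and 195, 224 and 267 CPM on day 30 of controls, a difference of 1.53 (SE 0.40). INSR had a difference of -1.38 (SE 0.44).

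The death domain adaptor CRADD had 7.89, 28.6 and 17.4 CPM on day 20 and 35.5, 51.3 and 49.4 CPM on day 30 of treatment, and 44.3, 40.2 and 27.8 CPM against 12.7, 16.6 and 22.9 CPM in controls, a difference of 2.50 (SE 0.59). The dynein light chain gene DYNLT3 had 16.9, 67.6 and 98.1 CPM against 212, 282 and 451 CPM in treated dogs and 361, 348 and 199 CPM against 85.8, 161 and 147 CPM in controls, a difference of 3.66 (SE 0.76). The metalloreductase gene STEAP2 differed by 3.37 (SE 0.69) and the phosphatase gene PTPN20 by 4.48 (SE 0.83). On the other side, the differences were -3.37 (SE 0.70) for DCHS1, a protocadherin, -2.47 (SE 0.70) for MCM2 and -5.22 (SE 1.37) for the phosphate transporter SLC34A2, which had at most 12.7 CPM in any of the 12 libraries. The zona pellucida gene ZP3 had a difference of -6.57 (SE 2.19), a value that depends on the prior count, since its levels in day 20 controls were 0.0601, 0 and 0 CPM.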

How the results depend on the processing

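In treated dogs, the 0 DEGs of edgeR became 562 with DESeq2, 1384 with limma voom and sample quality weights, and 349 when all 26 libraries shared a fit. They stayed at 0 with limma voom, RLE factors, no filter, filterByExpr, an FDR under 0.05 alone and without the 10 most counted genes. In control dogs DESeq2 called 157 and the weighted voom 343, and in the interaction they called 560 and 1831. Leaving out 1 library at a time gave 0 to 1 DEGs in treated dogs (1 without day 20 replicate 2), 0 to 1 in controls (1 without day 30 replicate 2) and 0 to 1 in the interaction (1 without day 20 treated replicate 2), and with DESeq2 in treated dogs 48 to 1576. A fit of days 20 and 30 without day 20 treated replicates 2 and 3, in which the lone day 20 treated library was assumed to vary like the other groups, called 2. The causes of these differences were not tested.

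With the replicate number as a block, 5 DEGs were called in treated dogs and 4 in controls, and the share of lower genes among those at an unadjusted P under 0.05 went from 60.5% to 28.5% in treated dogs and from 47.8% to 31.6% in the interaction. The numbers 2 and 4 recur in both treated groups, but deviations from the group means correlated at only 0.133 and -0.0858 between libraries with the same number (-0.429 and -0.255 in controls), no source describes pairs, and these samples share only a number.

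Signs turned for 5 named genes, none of which had passed with edgeR. The log2 fold change of CYP51A1 was -0.12 with the weighted voom and -0.41 without day 20 replicates 2 and 3, that of CD68 was 0.22 in the latter fit, that of FDPS was 0.069 with voom, and that of LHCGR was 0.42 with the block. With 1 library left out, the values ranged from -1.03 to 0.11 for FDPS, from -0.86 to 0.46 for LHCGR and from -1.05 to 0.090 for CD34. The cause was not tested. Of the 24 list medians, 9 turned sign in at least 1 alternative. Without day 20 replicates 2 and 3 these included macrophage (from -0.62 to 0.08) and granulosa and theca genes (from 0.63 to -0.03), and without day 20 replicate 2 the respiratory chain (from -0.19 to 0.50), cholesterol genes (from -0.13 to 0.28), hormone receptors (from 0.10 to -0.06) and endothelial genes (from -0.17 to 0.15). Medians moved by more than the spread between libraries in 14 instances with 1 library left out (130 did not) and in 14 under other settings (202 did not). For PG genes they lay between -1.62 and -0.54, and for immediate-early genes the median was -0.71 with the replicate block. The share of lower genes at an unadjusted P under 0.05 in controls went from 89.5% to 81.3% with RLE factors and to 59.7% (163 of 273 genes) with all 26 libraries in 1 fit. In the interaction it rose from 47.8% to 56.9% with RLE factors, 57.3% without the 10 most counted genes and 60.2% with all 26 libraries. It fell to 39.3% with voom and to 41.4% with the weighted voom, whose DEGs were 1135 higher and 696 lower. The distance between the days was 69.5 to 91.0 with 1 library left out, and its exact permutation P was 0.3 without day 30 replicate 2, 0.6 without day 30 replicate 4 or 5, and 0.2 over the 500 genes with the highest variance.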
